A study of Mus musculus with 4 samples.

Results

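The genes examined were 10 members of the signaling route that runs from leukemia inhibitory factor (LIF) and related cytokines through the shared receptor gp130 to the transcription factor STAT3, out of 22609 gene symbols counted. They comprised the ligand genes Lif, Clcf1 and Cntf, the receptor genes Il6st (gp130), Osmr, Lifr and Il6ra, the kinase gene Jak2, the transcription factor gene Stat3 and the feedback gene Socs3. All 10 symbols were present in each count table. The genes were chosen by their role together with counts and genotype differences already seen in these libraries, so the differences of these 10 genes are given as a description without p-values.

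Expression was measured by RNA-Seq in hippocampi of ovariectomized female mice 24 h after 20 min of global cerebral ischemia (GCI), produced by clipping both common carotid arteries. There were 2 libraries from FLOX mice (FLOX+GCI), which carry the floxed Cyp19a1 gene for aromatase, and 2 from FBN-ARO-KO mice (FBN-ARO-KO+GCI), in which Cre under the CaMKIIα promoter deletes that gene in forebrain excitatory neurons. Mice in the study were 3 to 5 months old, and the ovaries were removed 1 week before ischemia. No library from a sham-operated mouse was analysed here, so the levels after GCI have no uninjured reference. The sources do not say whether each library came from a separate mouse, and p-values therefore measure only the spread between libraries.

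Cytokines of the interleukin-6 family act by joining gp130 with a partner receptor, such as the LIF receptor or the oncostatin M receptor. Receptor-bound JAK kinases then phosphorylate STAT3, which enters the nucleus and turns on target genes. Socs3 is one of these targets, and its protein blocks the receptor complex, so that its transcript is widely used as a readout of recent gp130 signaling. In injured brain, this route is known as a driver of astrocyte reactivity.

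The libraries held between 24333396 and 33076795 counts on genes, at which 3 counts correspond to between 0.0907 and 0.123 CPM (counts scaled to a library of 1000000). Cyp19a1, the targeted gene, had 4 and 1 counts in FLOX+GCI against 2 and 2 in the FBN-ARO-KO+GCI libraries, which does not suffice to check the labels. Across the 14527 genes left after low counts were filtered out, 2 had an adjusted p under 0.05 between genotypes by edgeR's quasi-likelihood test, and 2403 had an unadjusted p under 0.05. Both of the former, AA465934 and Xaf1, were lower in FBN-ARO-KO+GCI (0.0138% of genes tested), and neither was among the 10 genes. Markers of hippocampal neurons summed to 12361 and 12209.6 CPM in FLOX+GCI and to 12609.9 and 13201 CPM in FBN-ARO-KO+GCI, with all 10 markers present in every library. Blood leukocyte markers summed to between 1.43 and 2.08 CPM in all 4 libraries.

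The main feature of Lif, Clcf1 and Socs3 was a high level in a single library, FLOX+GCI replicate 2. Lif, the ligand that signals through gp130 and the LIF receptor, was counted 40 times in FLOX+GCI replicate 1, 521 times in replicate 2, and 35 and 39 times in the FBN-ARO-KO+GCI libraries. After scaling with TMM this was 1.60 and 21.1 CPM in FLOX+GCI against 1.06 and 1.33 CPM in FBN-ARO-KO+GCI. FLOX+GCI replicate 2 was thus 13.2 times as high as replicate 1, whereas replicate 1 was 1.34 times the FBN-ARO-KO+GCI mean. The exact Poisson 95% interval of FLOX+GCI replicate 1 was 1.14 to 2.17 CPM and overlapped those of the FBN-ARO-KO+GCI libraries, 0.735 to 1.47 and 0.947 to 1.82 CPM. These intervals cover counting error only. The group means were 11.4 ± 13.8 CPM (SD, n = 2) for FLOX+GCI and 1.19 ± 0.195 CPM (SD, n = 2) for FBN-ARO-KO+GCI. On the log2 scale the genotypes differed by -3.25 (standard error 1.00). Lif had a log2 fold change of -0.43 when FLOX+GCI replicate 2 was left out.

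**Figure D1:**
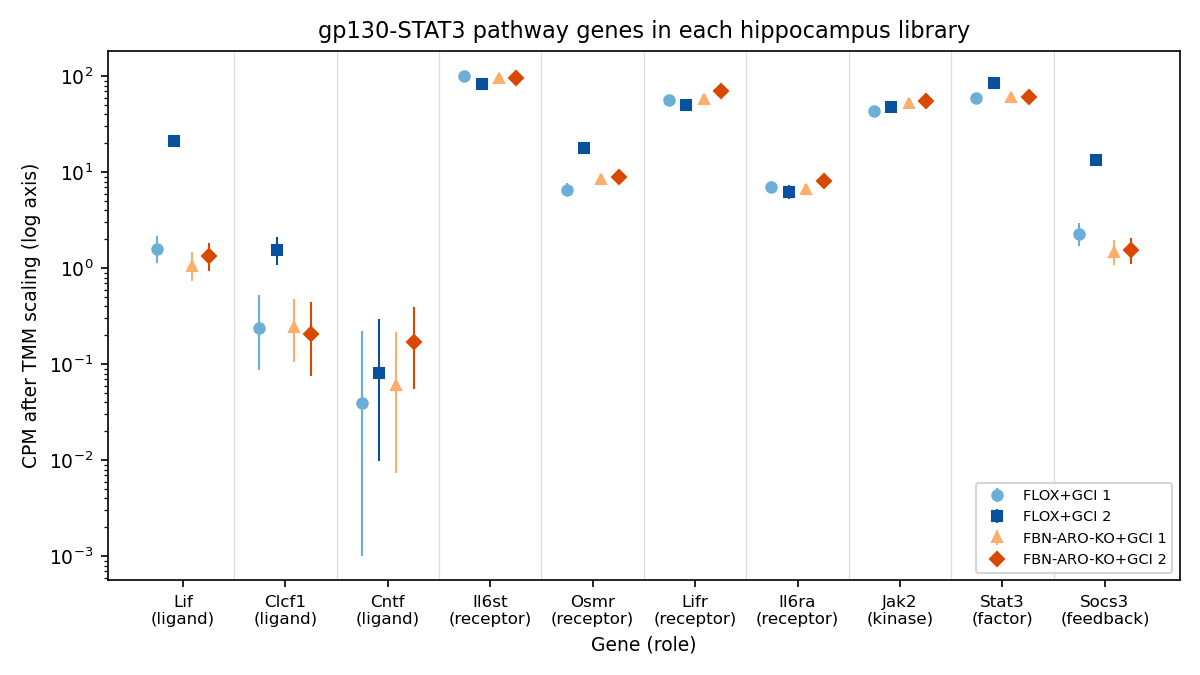
Level of each of the 10 genes in each of the 4 libraries, in CPM after TMM scaling on a log axis. Each point is 1 library and each bar its exact Poisson 95% interval. Lif, Clcf1, Osmr and Socs3 stand highest in FLOX+GCI replicate 2, while Il6st, Lifr, Il6ra and Jak2 stay close together in all 4 libraries.

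Socs3 had the same order of libraries as Lif in being high in FLOX+GCI replicate 2 and low elsewhere. Its counts were 57 and 330 in FLOX+GCI against 49 and 45 in the FBN-ARO-KO+GCI libraries. In CPM the FLOX+GCI libraries stood at 2.27 and 13.4 and the FBN-ARO-KO+GCI libraries at 1.48 and 1.54. The FBN-ARO-KO+GCI libraries were both below both FLOX+GCI libraries, but the counting interval of FLOX+GCI replicate 1, 1.72 to 2.95 CPM, overlapped those of the FBN-ARO-KO+GCI libraries. The mean of Socs3 was 7.83 ± 7.86 CPM (SD, n = 2) for FLOX+GCI and 1.51 ± 0.0410 CPM (SD, n = 2) for FBN-ARO-KO+GCI. The log2 fold change was -2.37 (standard error 0.71), and -0.60 without FLOX+GCI replicate 2. Among the 14527 genes tested, Lif and Socs3 ranked 3 and 7 by the ratio of FLOX+GCI replicate 2 to the highest of the other libraries, at 13.2 and 5.89. A ratio of at least 4 was found for 0.0757% of all genes tested.

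The other ligand genes were scarce. Clcf1, cardiotrophin-like cytokine, which signals through the CNTF receptor, did not pass the filter and had 6 and 38 counts in FLOX+GCI against 8 and 6 in the FBN-ARO-KO+GCI libraries. It shared the high value in FLOX+GCI replicate 2, while the other 3 libraries lay between 0.204 and 0.242 CPM. When genes were kept from 1 count upwards, the log2 fold change of Clcf1 was -1.96 (standard error 0.80). Cntf, ciliary neurotrophic factor, had 1 and 2 counts in FLOX+GCI against 2 and 5 in the FBN-ARO-KO+GCI libraries, at or near the limit of detection in every library. Of the 1073 bases of its exons, 847 are shared with exons of Zfp91 on the same strand, so reads there could be lost as ambiguous.

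Of the receptor genes, Osmr was the exception. Osmr encodes the partner of gp130 in the oncostatin M receptor and had 165 and 438 counts in FLOX+GCI against 285 and 260 in the FBN-ARO-KO+GCI libraries. The FLOX+GCI libraries held 6.58 and 17.8 CPM and lay on either side of the FBN-ARO-KO+GCI libraries, with 8.60 and 8.88 CPM. The means were 12.2 ± 7.91 CPM (SD, n = 2) and 8.74 ± 0.197 CPM (SD, n = 2). The sign of the genotype difference for Osmr rested on 1 library, with a log2 fold change of -0.48 (standard error 0.39) over all libraries, 0.40 without FLOX+GCI replicate 2 and -1.02 without FLOX+GCI replicate 1.

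Il6st, Lifr and Il6ra had no such excess. Il6st, the gene for gp130 itself, had 99.6 and 83.3 CPM in FLOX+GCI against 95.7 and 96.6 CPM in FBN-ARO-KO+GCI. FLOX+GCI replicate 2 was the lowest library for Il6st, and the log2 fold change was 0.073 (standard error 0.097). Lifr, for the LIF receptor, had 57.0 and 50.6 CPM in FLOX+GCI against 58.4 and 69.5 CPM in FBN-ARO-KO+GCI (log2 fold change 0.25, standard error 0.11). The groups did not overlap for Lifr, with FBN-ARO-KO+GCI replicate 2 highest. After correction of each library for its trend over GC content and transcript length they did overlap, with 59.9 and 52.8 CPM in FLOX+GCI against 58.8 and 62.9 CPM in FBN-ARO-KO+GCI. Il6ra, for the interleukin-6 receptor, had 7.02 and 6.25 CPM in FLOX+GCI against 6.67 and 8.16 CPM in FBN-ARO-KO+GCI, so that the groups overlapped.

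Jak2 and Stat3 carry the signal inside the cell. Jak2 had 43.2 and 47.8 CPM in FLOX+GCI against 52.6 and 55.0 CPM in FBN-ARO-KO+GCI, with both FBN-ARO-KO+GCI libraries the higher. Its log2 fold change was 0.24 (standard error 0.089), and 0.12 with GC content and length corrected for. Stat3 had 58.9 and 85.1 CPM in FLOX+GCI against 61.5 and 60.6 CPM in FBN-ARO-KO+GCI. FLOX+GCI replicate 2 was again the highest library for Stat3, by a factor of 1.38 over the next, while replicate 1 was the lowest. The log2 fold change of Stat3 was -0.24 (standard error 0.16) and became 0.048 without FLOX+GCI replicate 2. The counts are of transcripts and carry no information on STAT3 phosphorylation. Stat3 shares 72 exonic bases with Stat5a on the opposite strand, and the strand setting is not given in the sources used here.

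**Figure D2:**
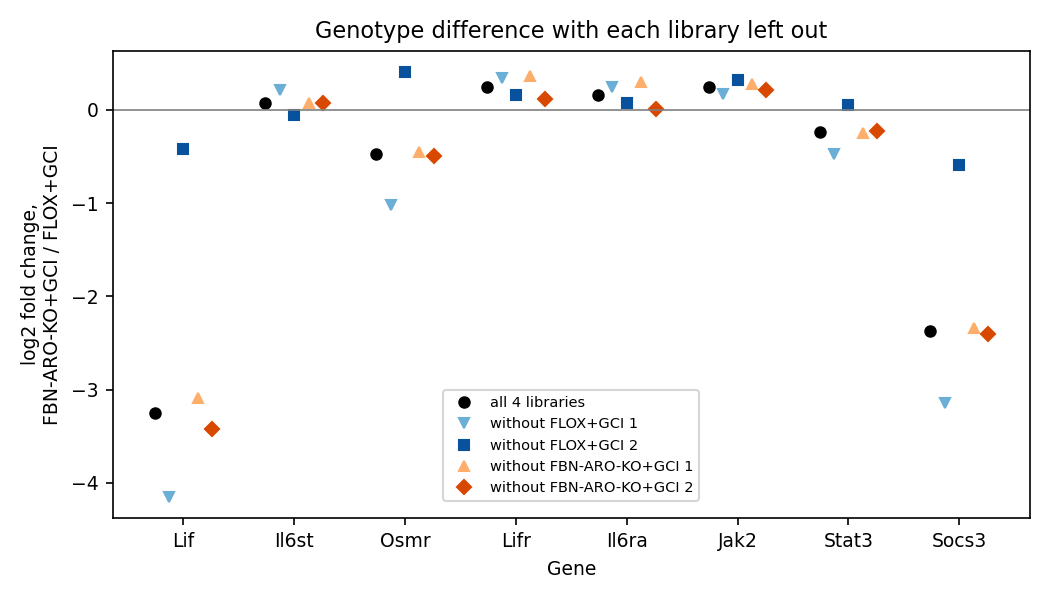
Log2 fold change of FBN-ARO-KO+GCI against FLOX+GCI for the 8 genes that passed the filter, with all 4 libraries and with each library left out in turn. Without FLOX+GCI replicate 2, Lif and Socs3 move to -0.43 and -0.60, and Osmr, Stat3 and Il6st (-0.05) cross 0.

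Over the 8 of the 10 genes that passed the filter, 4 were lower and 4 higher in FBN-ARO-KO+GCI, with a median log2 fold change of -0.082 against -0.0074 for all genes tested. The groups did not overlap for 4 of the 8 genes, Lif and Socs3 on the lower and Lifr and Jak2 on the higher side. This held for 51.8% of all genes tested. Within FLOX+GCI, replicate 2 was at least 2-fold above replicate 1 for 3 of the 8 genes, Lif, Osmr and Socs3, against 1.35% of all genes tested. Within FBN-ARO-KO+GCI, replicate 2 was between 0.985 and 1.26 times replicate 1 for all 8. The large values of Lif and Socs3 thus came mainly from FLOX+GCI replicate 2. Replicate 1 was 1.34 times the FBN-ARO-KO+GCI mean for Lif and 1.51 times for Socs3. With 2 libraries in a group, it cannot be shown which FLOX+GCI level is the usual one.

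Levels were compared between genes per kb of merged exons in GENCODE M1. On this scale Il6st was the most abundant of the receptor genes in every library, between 16.0 and 19.1 CPM per kb. Lifr followed with between 4.90 and 6.73 CPM per kb. Osmr had 1.36 and 3.68 CPM per kb in FLOX+GCI and 1.78 and 1.84 CPM per kb in FBN-ARO-KO+GCI, and its range overlapped that of Il6ra, 1.87 to 2.44 CPM per kb. The ratio of Il6st to Osmr per kb was 14.0 in FLOX+GCI replicate 1 and 4.35 in replicate 2, against 10.3 and 10.1 for FBN-ARO-KO+GCI. The ratio of Il6st to Lifr per kb varied less, between 2.76 and 3.47. The ranges of Jak2, 8.58 to 10.9 CPM per kb, and Stat3, 6.19 to 8.93 CPM per kb, overlapped each other. In FLOX+GCI replicate 2, Lif and Socs3 reached 4.86 and 4.63 CPM per kb, beside 4.90 for Lifr in that library. In the other 3 libraries Lif had between 0.243 and 0.367 CPM per kb.

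**Figure D3:**
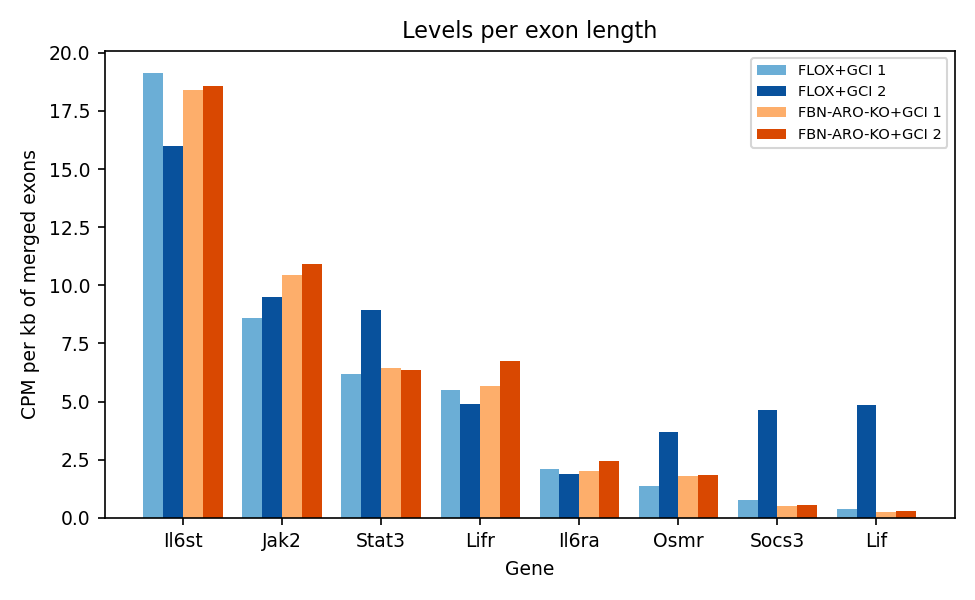
CPM per kb of merged exons for 8 genes in the 4 libraries, with a bar for each library. Il6st is highest in every library at 16.0 to 19.1 CPM per kb, and the bars of Lif, Socs3 and Osmr in FLOX+GCI replicate 2 stand above those of the other libraries.

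Stretches before the RefSeq starts of Socs3, Lif and Osmr are shown because these 3 genes shared the excess in FLOX+GCI replicate 2. They were taken from the RefSeq promoter table of GRCm38.p6 and placed on the build of the study, mm9 (NCBIM37), by exact match. They are written 5′ to 3′ on the strand of the gene, and capitals mark 2 motifs, each of which reads the same on the opposite strand. The first is TTCNNNGAA, the core bound by STAT factors, and the second is TGANTCA, the core bound by AP-1, which was searched for after the sequences had been seen. The stretches lie at chr11:117830771-117830930 (minus strand) for Socs3, chr11:4157321-4157550 (plus strand) for Lif and chr15:6824314-6824563 (minus strand) for Osmr. The Socs3 stretch lies within the span of the gene in GENCODE M1, in an intron of a noncoding transcript that begins further upstream, and before the start of the protein-coding transcript.
Socs3: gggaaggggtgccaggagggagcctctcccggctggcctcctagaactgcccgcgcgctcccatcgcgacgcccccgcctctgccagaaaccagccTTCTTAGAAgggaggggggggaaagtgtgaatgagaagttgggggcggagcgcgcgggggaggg
Lif: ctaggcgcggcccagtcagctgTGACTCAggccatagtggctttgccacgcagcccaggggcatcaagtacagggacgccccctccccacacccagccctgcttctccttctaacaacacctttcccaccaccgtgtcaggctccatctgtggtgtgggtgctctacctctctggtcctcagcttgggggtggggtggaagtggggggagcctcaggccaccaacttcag
Osmr: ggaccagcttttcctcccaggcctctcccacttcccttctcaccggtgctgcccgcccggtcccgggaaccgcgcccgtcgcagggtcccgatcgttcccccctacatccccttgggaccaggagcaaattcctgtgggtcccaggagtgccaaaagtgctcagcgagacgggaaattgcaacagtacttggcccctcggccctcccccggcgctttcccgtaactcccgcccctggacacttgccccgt

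The table had an entry for 9 of the 10 genes, Clcf1 having none. In the 250 bases before the RefSeq start, TTCNNNGAA occurred in 1 of the 9, Socs3, where it began 154 bases before the start. It occurred in 7.02% of all 32851 promoters of the same length and, counted by gene, in 8.13% of 27025 genes. TGANTCA occurred in 2 of the 9, Lif and Cntf, and in 6.75% of all promoters or 7.82% of genes. GENCODE M1 places the start of the protein-coding Socs3 transcript further downstream, at 117830500, and the 250 bases before that start held 1 other match at chr11:117830553-117830561.
Socs3 site: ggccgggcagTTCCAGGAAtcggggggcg
With starts from GENCODE M1, TTCNNNGAA was again found in 1 of the 10 genes, Socs3, and in 6.73% of 22378 genes. A match is a description of the letters and was not tested as a binding site.

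In position, Lif lies on chromosome 11 of mm9 from 4157560 to 4172517, 16.5 kb from the end of Osm, with no coding gene between them. Osmr, on chromosome 15 from 6763577 to 6824313, and Lifr, from 7079559 to 7147489, are neighboring coding genes on opposite strands that are 255.2 kb apart. Socs3 and Stat3 are also on chromosome 11, from 117827393 to 117831361 and from 100746412 to 100800854. Il6st is on chromosome 13, Il6ra on chromosome 3, and Clcf1, Cntf and Jak2 on chromosome 19. The neighbors differed in their values, since Lifr lacked the excess of Osmr, and Osm had 7 and 9 counts in FLOX+GCI against 0 and 1 in the FBN-ARO-KO+GCI libraries.

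Genes whose pattern over the 4 libraries was most like that of Socs3 were sought among 14448 tested genes with a mean of at least 10 counts, by the Euclidean distance of centred log2 CPM. The nearest were Serpinf2 (distance 0.397), Mamdc2, Gdpd3, Tubb6 and Cd44 (0.724). Serpinf2, which encodes the plasmin inhibitor alpha-2-antiplasmin, had 23 and 125 counts in FLOX+GCI against 24 and 23 in the FBN-ARO-KO+GCI libraries. Cd44, the hyaluronan receptor, had 4.71 and 21.5 CPM in FLOX+GCI against 3.92 and 4.95 CPM in FBN-ARO-KO+GCI. Lif ranked 9 in likeness to Socs3, with a distance of 0.928. For Osmr the nearest were Arl5c (0.186), Gfap (0.230), Tmem8c, 1700034H15Rik and Slitrk6 (0.270). All but Gfap, the astrocyte intermediate filament gene, were scarce, with 11 to 80 counts in a library. The level of Gfap was 396 and 900.3 CPM in FLOX+GCI against 502 and 560.2 CPM in FBN-ARO-KO+GCI, the same order of libraries as Osmr. Likeness over 4 libraries is a description, and many genes can share a pattern over so few points.

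The remaining ligands and receptors of the family were examined in lists. These lists, like those after them, were drawn up with earlier results of these data known. Of 8 other ligand genes, 3 passed the filter, and none of these had an adjusted or unadjusted p under 0.05 by edgeR's quasi-likelihood test (0 of 3 for each, and 0 adjusted with the likelihood ratio test or the replicate block, while DESeq2 gave these 3 genes no adjusted p). The unadjusted share over all genes tested was 16.5%. With GC content and length corrected for, 1 of the 3 ligand genes had an unadjusted p under 0.05, against 1657 of all 14527 genes tested. Of the tested ligand genes, Ctf1 and Ebi3 were at or below 1.32 CPM in every library. Among the ligands below the filter, Il11, which acts through gp130, had 7 and 31 counts in FLOX+GCI against 9 and 6 in the FBN-ARO-KO+GCI libraries, high in the same library as Lif and Clcf1. Osm, for oncostatin M, did not share that pattern. It had 7 and 9 counts in FLOX+GCI against 0 and 1 in the FBN-ARO-KO+GCI libraries, too few to be tested. Il6, the founding member of the family, had 1 and 2 counts in FLOX+GCI against 2 and 1 in the FBN-ARO-KO+GCI libraries, and a difference was not detectable at this depth.

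Of 4 other receptor genes of the family, 3 were tested and 0 had an adjusted or an unadjusted p under 0.05 (edgeR's quasi-likelihood test). The adjusted count was also 0 with the likelihood ratio test or the replicate block. DESeq2 gave an adjusted p to 1 of the 3 and did not call it. Cntfr, the receptor for CNTF and CLCF1, had 76.0 and 67.5 CPM in FLOX+GCI against 79.3 and 69.1 CPM in FBN-ARO-KO+GCI. The log2 fold change of Cntfr was 0.048, and 0.30 with GC content and length corrected for (adjusted p = 0.332, edgeR's quasi-likelihood test). In that corrected fit, 1 of the 3 tested genes had an unadjusted p under 0.05, against 1657 of all 14527 genes tested. Il27ra had the largest difference of the 3, with 1.68 and 1.54 against 1.03 and 0.990 CPM. Its log2 fold change was -0.67 (standard error 0.30), with an adjusted p = 0.310 (edgeR, quasi-likelihood). Il31ra was not tested, with 3 counts in FLOX+GCI replicate 1 and 0 in the other libraries.

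Of 10 other JAK kinases, STAT factors and the phosphatase gene Ptpn11, 9 were tested and 0 had an adjusted p under 0.05 by edgeR's quasi-likelihood test, the likelihood ratio test, the replicate block or DESeq2, which gave an adjusted p to 4 of them. At an unadjusted p under 0.05 there was 1 lower gene, Stat5a, and 1 higher gene, Ptpn11. Shares over all genes tested were 7.82% lower and 8.72% higher. Stat5a, whose product transmits growth hormone and prolactin signals, had 1.76 and 1.83 CPM in FLOX+GCI against 1.21 and 0.956 CPM in FBN-ARO-KO+GCI (log2 fold change -0.72, adjusted p = 0.289, edgeR). Ptpn11, for the phosphatase SHP2, had 245.9 and 251 CPM in FLOX+GCI against 281 and 283 CPM in FBN-ARO-KO+GCI (log2 fold change 0.18, adjusted p = 0.256, edgeR). Jak1, the main kinase of gp130, lay between 269 and 292 CPM in all libraries. The median log2 fold change of the 9 genes was -0.12, and 0.030 without FLOX+GCI replicate 2, when 0 had an unadjusted p under 0.05.

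Of 14 inhibitors of JAK-STAT signaling other than Socs3, all were tested and 0 had an adjusted p under 0.05 by the same tests, of which DESeq2 gave an adjusted p to 6. An unadjusted p under 0.05 was found for 3, Pias2, Socs7 and Pias1, each higher in FBN-ARO-KO+GCI, where 8.72% of all genes tested were higher at this threshold. Pias2 had 67.7 and 67.4 CPM in FLOX+GCI against 78.6 and 87.7 CPM in FBN-ARO-KO+GCI (log2 fold change 0.30, adjusted p = 0.238, edgeR). With GC content and length corrected for, the log2 fold change was 0.10 for Pias2 and 0.12 for Pias1, and 0.29 for Socs7. Socs1, Socs2 and Cish, which cytokines also induce, were chosen for mention after their values were seen. Socs1 had 0.479 and 0.568 CPM in FLOX+GCI against 0.422 and 0.239 CPM in FBN-ARO-KO+GCI, and Cish had 3.35 and 3.57 against 2.90 and 2.42 CPM. Both FLOX+GCI libraries were the higher for Socs1 and Cish, with log2 fold changes of -0.64 and -0.38 (adjusted p = 0.524 and 0.408, edgeR). Socs1 had only 7 to 14 counts in a library. Groups without overlap were found for 8 of the 14 inhibitors, against 51.8% of all genes tested. Apart from Socs1 and Cish, these were higher in FBN-ARO-KO+GCI, namely Socs5, Socs6, Socs7, Pias1, Pias2 and Ptpn2. Socs2 lay between 12.4 and 13.5 CPM, with overlapping groups. The list had a median log2 fold change of 0.094.

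Genes commonly described as responding to gp130 or STAT3 formed the last list, and their values split into several patterns. Because this list was drawn up with earlier results of these data known, its p-values, median and shares are a description only. Of 28 genes, 26 were tested, with 19 lower and 7 higher in FBN-ARO-KO+GCI and a median log2 fold change of -0.40, against -0.0074 for all genes tested. None had an adjusted p under 0.05 by edgeR's quasi-likelihood test (0 of 26), while 9 lower and 3 higher genes had an unadjusted p under 0.05, against 7.82% lower and 8.72% higher over all genes tested. DESeq2 called 3 of the 10 genes to which it gave an adjusted p (Junb, Vim and Bcl6) and the likelihood ratio test 6. Without FLOX+GCI replicate 2 the median was -0.14, with 16 lower and 10 higher, and without FLOX+GCI replicate 1 it was -0.56.

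**Figure D4:**
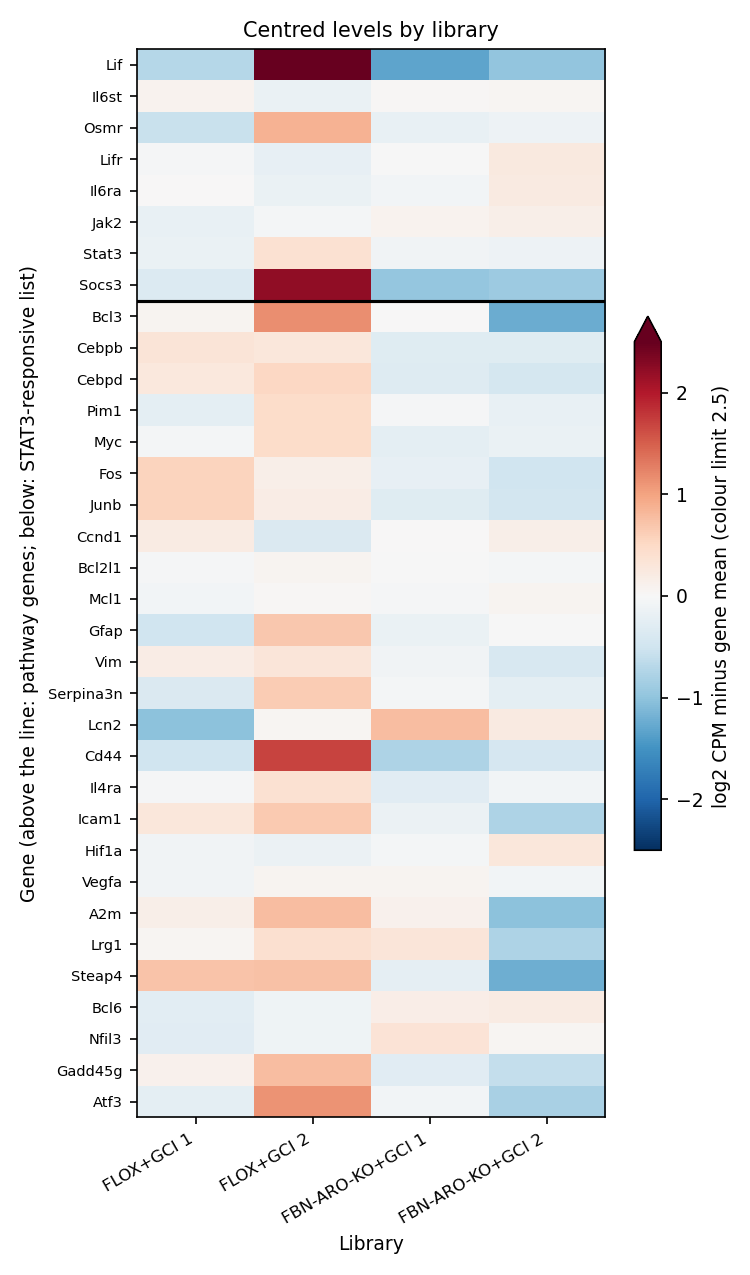
Log2 CPM of each gene minus its mean over the 4 libraries, for the 8 pathway genes that passed the filter (above the line) and the 26 tested STAT3-responsive genes (below). Colors are limited to 2.5 on the log2 scale. Red cells for Lif, Socs3, Osmr and Cd44 are found in FLOX+GCI replicate 2, whereas Fos and Junb are red in FLOX+GCI replicate 1.

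The same excess in FLOX+GCI replicate 2 was found in 7 of the 26 genes, at least 1.5-fold above each other library, against 1.37% of all genes tested. These, named after their values were seen, were Cd44, Gfap, Serpina3n, Bcl3, A2m, Gadd45g and Atf3, of which Cd44 had the largest ratio to the next library, 4.34. Below the filter, Timp1, an inhibitor of matrix metalloproteinases, had 5 and 203 counts in FLOX+GCI against 5 and 4 in the FBN-ARO-KO+GCI libraries. Ccl2, a chemokine for monocytes, had 1 and 24 counts in FLOX+GCI against 3 and 1 in the FBN-ARO-KO+GCI libraries.

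Other responsive genes did not follow Lif and Socs3. The immediate-early gene Junb had 57.6 and 44.6 CPM in FLOX+GCI against 31.8 and 28.5 CPM in FBN-ARO-KO+GCI, and Fos had 28.6 and 21.5 against 16.9 and 13.7 CPM. For both, FLOX+GCI replicate 1 and not 2 was the highest library, and the log2 fold changes of -0.76 and -0.71 (adjusted p = 0.238 for each, edgeR's quasi-likelihood test) became -0.93 and -0.90 without FLOX+GCI replicate 2. In that fit of 3 libraries the adjusted p was 0.00128 for Junb and 0.0140 for Fos, on the assumption that the lone FLOX+GCI library varied like the others. No other fit that left out a library called either gene, with an adjusted p from 0.0503 to 0.844 for Junb and from 0.166 to 0.844 for Fos (edgeR). With GC content and length corrected for, the log2 fold change of Junb was -0.44 and that of Fos -0.64 (adjusted p = 0.332 for each, edgeR). Cebpd, a transcription factor of the acute-phase response, had 7.94 and 9.45 CPM in FLOX+GCI against 5.28 and 4.92 CPM in FBN-ARO-KO+GCI (log2 fold change -0.77, adjusted p = 0.238, edgeR). Bcl6, a transcriptional repressor, was on the other side, with 65.6 and 72.3 against 87.9 and 90.4 CPM (log2 fold change 0.37, adjusted p = 0.238, edgeR). Lcn2 and Nfil3, named after their values were seen, were also higher in both FBN-ARO-KO+GCI libraries. Lcn2 had 2.35 and 4.95 against 8.18 and 5.63 CPM (log2 fold change 0.92, adjusted p = 0.268, edgeR). Nfil3 had 12.2 and 13.7 against 18.8 and 15.4 CPM (log2 fold change 0.40, adjusted p = 0.255, edgeR). Vim, the intermediate filament vimentin, had 66.5 and 72.5 against 54.8 and 44.1 CPM.

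Markers of other cells were summed beside these results. Astrocyte markers other than Gfap summed to 5528 and 5108 CPM in FLOX+GCI and to 5664 and 6210.5 CPM in FBN-ARO-KO+GCI, and of the 8 markers, 1 was highest and 6 were lowest in FLOX+GCI replicate 2. Microglia markers summed to between 422 and 471 CPM, and of the 8 markers, 4 were highest and 4 were lowest in FLOX+GCI replicate 2. Endothelial and mural markers summed to 309 and 200.2 CPM in FLOX+GCI against 238 and 156 CPM in FBN-ARO-KO+GCI, meningeal fibroblast markers to 184 and 112 against 119 and 88.9 CPM, and choroid plexus markers to between 43.9 and 64.5 CPM. For all 3 of these lists FLOX+GCI replicate 1, not 2, had the highest sum. Of the 7 leukocyte markers, S100a8 and Cd3e were at 0 in FLOX+GCI replicate 1 and Plac8 in FBN-ARO-KO+GCI replicate 2, and 1 of the 7 passed the filter. In FLOX+GCI replicate 2 the leukocyte markers summed to 1.78 CPM, within the range of the FBN-ARO-KO+GCI libraries. Of the 7 markers, 3 were highest and 2 were lowest in FLOX+GCI replicate 2. What part the cell makeup of the dissected tissue had in the level of Lif, Socs3 or Osmr was not tested, and in bulk tissue fewer cells of a type cannot be told apart from less RNA per cell.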

How the data were processed

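The authors aligned 50 bp single-end reads to mm9 with TopHat2 (version 2.0.8b in the submitters' processing notes) and counted them with HTSeq; the deposited values are raw counts for each symbol, not normalized. The annotation release is not given in the sources used here. Each library had 22609 symbols and 5 counters of unassigned reads, which held between 43.4% and 45.5% of reads and were left out. The 10 genes and all lists were chosen with earlier results of these data known.

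All genes entered 1 fit in edgeR 4.0.16 (R 4.3.3), by its quasi-likelihood test after TMM scaling. Low genes were removed by filterByExpr (10 counts) and p-values adjusted by Benjamini-Hochberg with a threshold of 0.05. The standard error was obtained from the fold change and its F statistic. The libraries of a group were not duplicates (chi-square per degree of freedom of 10.5 and 12.3). Named genes were all 10 members, in each pathway list up to 5 tested genes with the smallest p (mean of at least 10 counts) and up to 3 genes below the filter with the most counts, and the 5 genes nearest to Socs3 and Osmr. Values of some genes are not reported here. Alternatives were DESeq2 1.42.0, other scalings and filters, a likelihood ratio test, a block for replicate number, a spline correction (5 degrees of freedom) for GC content and transcript length, which 95.5% of tested genes had, and each library left out. Gene models were from GENCODE M1 (NCBIM37, the same build as mm9). The fits were also run on simulated counts drawn with the same dispersion for all genes. That run does not show how the fits behave on data with an excess in a single library.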

Additional observations from a re-analysis of the deposited data

How the results depend on the processing

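The number of genes called at an adjusted p under 0.05 depended on the test. It was 2 in the comparison as reported, 256 with DESeq2, 294 with the likelihood ratio test, 5 with every gene of at least 1 count, 184 with the replicate block, and between 0 and 193 with 1 library left out. For the STAT3-responsive list it was 0 as reported, 3 with DESeq2, 6 with the likelihood ratio test, 4 with the replicate block (Junb, Fos, Gadd45g and Cd44), and between 0 and 6 with 1 library left out, counting every list gene tested in that fit. With the GC and length correction it was 0, and also 0 when the replicate block was added to that correction, where 3 genes were called in all. The sources do not say what the replicate numbers stand for. Deviations from the group mean had a correlation of 0.129 across genes between same-numbered libraries. Summed endothelial and mural markers, and summed meningeal fibroblast markers, were lower in replicate 2 than in replicate 1 of both groups. No other marker list was lower in replicate 2 of both groups. Whether same-numbered libraries share a batch was not tested. The block changed the calls of no list but the STAT3-responsive one. With the block, log2 fold changes were -2.66 for Lif, -2.01 for Socs3 and -0.34 for Osmr.

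With 1 library left out in turn, Osmr ranged from -1.02 to 0.40 and Stat3 from -0.48 to 0.048 on the log2 scale, both turning sign without FLOX+GCI replicate 2. Among list genes that were not called, the sign turned in some of these fits for Ctf1 (-0.40 to 0.029), Ebi3 (-0.14 to 0.082), Il11ra1 (-0.37 to 0.24) and Cntfr (-0.059 to 0.14). It also turned with the GC and length correction for Ebi3 (0.20, and 0.20 with the block) and Il11ra1 (0.18, and 0.17 with the block). The log2 ratio of summed neuron markers was 0.071, and 0.032 with library totals only. The cause of these changes was not tested. Cntf was fitted with every gene kept and in no other setting, and Clcf1 also in 3 of the fits that left out a library (-2.76 to -1.86), but not without FLOX+GCI replicate 2, where it fell below the filter.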

Other observations

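A level in FLOX+GCI replicate 2 at least 4-fold above each other library was found for 11 of the 14527 genes tested. Besides Lif and Socs3 these included Ptx3, Gal, Gdpd3, Eps8l1, Serpinf2, Tubb6, Mamdc2 and Cd44, named after their values were seen. Gal, the neuropeptide galanin, had 3 and 134 counts in FLOX+GCI against 13 and 9 in the FBN-ARO-KO+GCI libraries. Tubb6, a tubulin isotype, had 25 and 149 counts in FLOX+GCI against 38 and 22 in the FBN-ARO-KO+GCI libraries. The same excess was found for 2 genes in FLOX+GCI replicate 1 and for 0 in each FBN-ARO-KO+GCI library. At 1.5-fold above each other library, there were 199 genes in FLOX+GCI replicate 2 and 249 in FLOX+GCI replicate 1.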
